A study of Equus caballus with 17 samples.

Results

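The miR-26 family was followed in horse (Equus caballus) testis through 4 stages of development and in sperm. It was represented by 2 entries of the small RNA count table, the annotated eca-miR-26a (miR-26a below) and a predicted hairpin, 6_4267002, taken as the miR-26b hairpin. No reference sequence of miR-26b was compared here. They were matched by their exact names, out of 274 annotated mature miRNAs and 1459 named predicted hairpins. miR-26a was listed under 2 precursors, and the entry with the higher summed counts was used. The other entry held 99.96% of its counts, so the same reads were counted for both precursors and their expression cannot be told apart.

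The 17 libraries fall into Infant testis (31a, 31b and 30), Pre-puber testis (3a, 3b and 14), Puber testis (10, 11 and 19), Adult testis (13, 20, 33 and 4) and Sperm (1, 2, 3 and 4), in the spelling of the labels. All are whole-tissue or sperm samples with no treatment named, and no age is given beyond the stage. The titles give 31a with 31b, and 3a with 3b, a common number. Whether each pair came from 1 animal, or any replicates from separate animals, is not in the labels, so a p-value here covers no more than library-to-library spread, which may be technical. In bulk samples, fewer cells of a type and less RNA per cell cannot be told apart.

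miRNAs are short RNAs, cut from hairpins, that guide Argonaute proteins to messenger RNAs by pairing through a seed near their 5′ end. miR-26a and miR-26b are close relatives with the same seed, are abundant in many differentiated tissues, and are known repressors of growth genes, among them the histone methyltransferase EZH2. Their precursors are known to lie in introns of the CTDSP genes, which encode small phosphatases. In NCBI RefSeq's horse annotation (assembly TB-T2T), MIR26A lies within CTDSP2 and MIR26A-2 within CTDSPL. The predicted hairpin was not placed in a gene here, since its coordinates belong to another build.

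The hairpin sequence is shown because it carries the seed by which the members are one family. It lies at chr6:7834344-7834399 on the plus strand, taken as EquCab3.0, the build in the submitters' processing notes. Capitals mark bases 2 to 8 of the hairpin, the seed of the miRNA on its 5′ arm.
6_4267002: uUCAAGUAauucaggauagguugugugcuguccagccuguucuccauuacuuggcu
The hairpin has 56 bases with 44.6% G and C. RNAfold folds it into a stem of 21 base pairs at -23.1 kcal/mol, and all 7 bases of the seed are paired. The motif UCAAGUA, searched on the given strand, occurs in 2 of 1461 hairpin entries (0.137%). The other entry, on chromosome 13, holds the motif from its base 13 and has 3 counts over the 17 libraries. The first 10 bases of 6_4267002 occur in 1 hairpin entry, itself. The counts of the hairpin are not split by arm.

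Total counts ranged from 1935954 to 17929886 per library and counts of annotated miRNAs from 1481718 to 13117711, highest on average in Infant and lowest in Sperm. Both members were deeply counted everywhere, with at least 45567 counts of miR-26a and 10071 of the hairpin in each library. Markers of meiotic and later germ cells (miR-34c, miR-34b-5p, miR-449a and miR-449b, 4 of 5 listed markers matched) were summed as CPM, the count relative to the scaled annotated total of the library, with all libraries scaled together. They gave 16.5 to 45.9 in Infant, 11503 to 20975 in Puber, 35078 to 52928 in Adult and 89621 to 231963 in Sperm. The Pre-puber libraries gave 41.4, 74.1 and 2609, so that 1 of them stood far above the others. Stromal and smooth muscle markers (miR-145, miR-199a-5p and miR-199b-5p, 3 of 5 matched) summed to 30821 to 44268 CPM in Infant, 12356 to 17835 in Adult and 45.1 to 115 in Sperm, with Pre-puber and Puber between Infant and Adult in their medians. Of these 3, miR-145 went the other way in testis, at 3456 ± 221 CPM in Infant (SD, n = 3) and 5016 ± 1695 in Adult (n = 4). Whether the shifts of these markers reflect cell content, and their part in the miR-26 results, was not tested.

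miR-26a was among the most abundant miRNAs of every library. As a share of annotated counts it held 25.5%, 15.9% and 9.04% in Infant 31a, 31b and 30, and 10.4%, 9.11% and 9.22% in Pre-puber 3a, 3b and 14. It held 6.96%, 6.48% and 6.0% in Puber 10, 11 and 19, and 5.93%, 6.19%, 7.15% and 6.11% in Adult 13, 20, 33 and 4. In Sperm 1, 2, 3 and 4 the share was 2.79%, 6.13%, 4.14% and 2.92%. Infant 31a stood highest, and Sperm 2 was the only sperm library within the range of the Adult libraries. Counting error is small beside these differences, with 95% Wilson intervals of at most 0.034 percentage points to each side, which cover counting error only. miR-26a ranked between 1 and 3 among annotated miRNAs in Infant and Pre-puber, between 5 and 8 in Puber, between 3 and 8 in Adult and between 5 and 6 in Sperm.

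The miR-26b hairpin was less abundant. Its counts, set against the same annotated totals, equalled 2.16%, 1.83% and 1.14% in Infant 31a, 31b and 30 and 0.777% to 0.884% in Pre-puber. They equalled 0.390% to 0.667% in Puber and 0.377% to 0.765% in Adult, and 0.874%, 2.43%, 0.942% and 0.645% in Sperm 1, 2, 3 and 4. By counts it would have ranked between 12 and 16 among the annotated miRNAs of Infant libraries, between 22 and 31 in Adult and between 11 and 22 in Sperm. Sperm 2 held the highest share of all 17 libraries.

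For a common order of the groups, the 17 libraries were scaled together by TMM, a method that assumes most miRNAs to be steady between libraries. On this scale the mean ± SD of miR-26a was, from high to low, 235050 ± 138797 CPM for Infant, 87350 ± 6263 for Pre-puber and 59254 ± 18114 for Puber (n = 3 each), then 53500 ± 17220 for Sperm and 44663 ± 6346 for Adult (n = 4 each). The libraries of Puber and Sperm, and of Sperm and Adult, overlapped. Infant and Pre-puber did not, as for 38% of annotated miRNAs and 36.9% of hairpins, nor did Pre-puber and Puber, as for 26.1% of annotated miRNAs. Between Sperm and Adult, 70.7% of annotated miRNAs had no overlap. The hairpin had another order, with 23536 ± 9770 CPM for Infant, 15383 ± 6701 for Sperm, 7612 ± 902 for Pre-puber, 4992 ± 2381 for Puber and 3558 ± 915 for Adult, over the same numbers of libraries. Here Infant overlapped with Sperm, Pre-puber with Puber, and Puber with Adult, while Sperm did not overlap with Pre-puber (63.1% of hairpins did not), nor with Adult (46.4%). Pre-puber and Puber, which overlapped here, did not for 74.3% of hairpins. On this scale Sperm thus stood in position 4 of 5 for miR-26a and in position 2 for the hairpin. By mean share of annotated counts miR-26a was lowest in Sperm, at 4.00% against 6.35% in Adult. The hairpin in Sperm (1.22%) still lay between Infant (1.71%) and Pre-puber (0.831%). With all 17 libraries in 1 edgeR fit, 142 of 184 annotated miRNAs were called in Sperm against Adult, with a median log2 change of -0.82. Most miRNAs were thus not steady there.

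**Figure D1:**
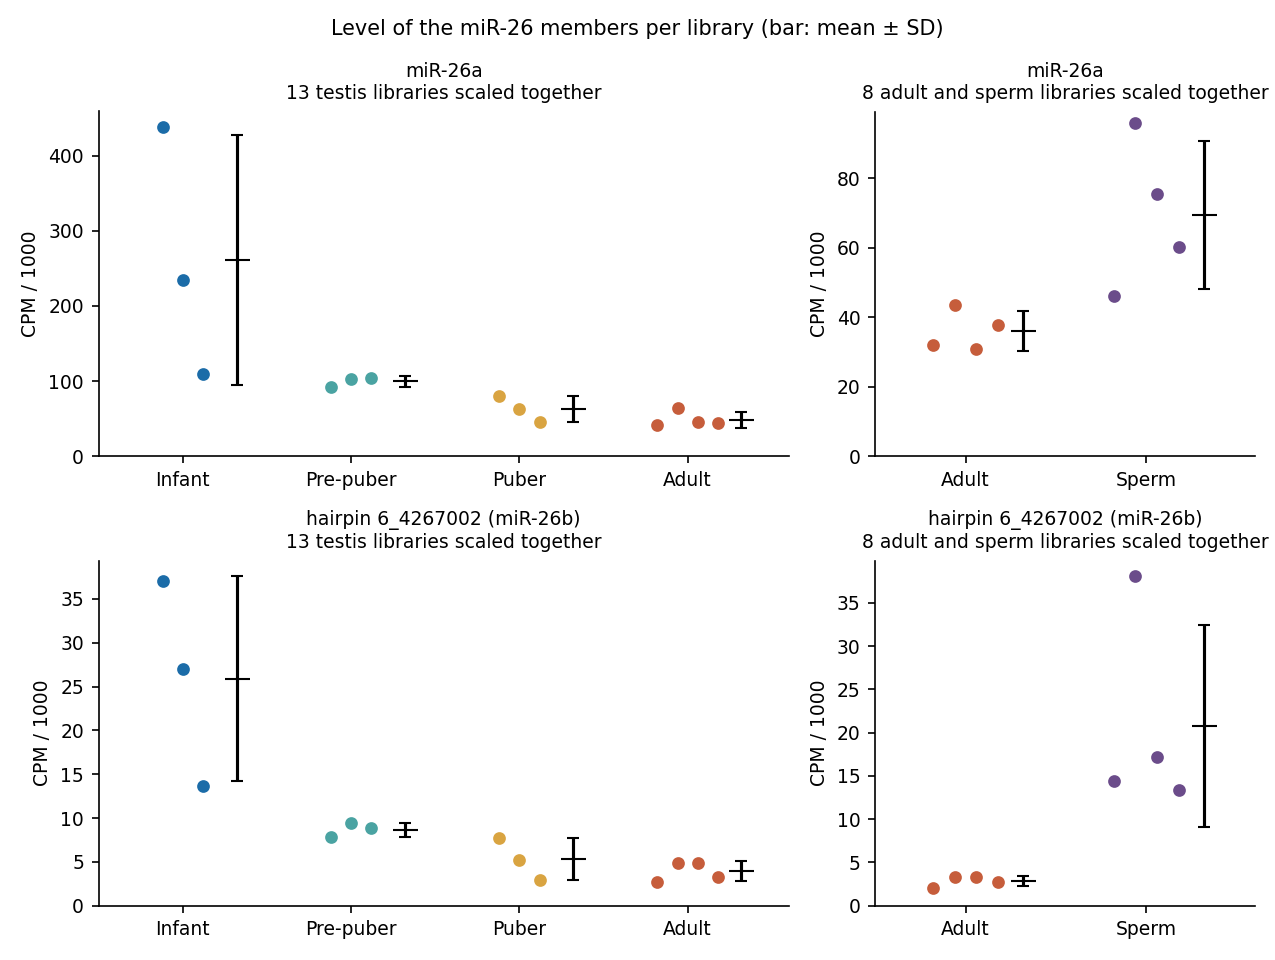
Level of miR-26a (top) and of the hairpin 6_4267002 (bottom) in CPM divided by 1000, 1 point per library with the mean ± SD as a bar; the testis stages (left, n = 3 or 4) and Adult with Sperm (right, n = 4 each) were scaled separately, so that Adult differs between the sides. Among the testis stages both members are highest and spread widest in Infant, and the 4 Sperm points of the hairpin lie well above the 4 Adult points.

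Both members were lower at the later testis stages. Differences were tested with edgeR's quasi-likelihood test on the counts, with 13 testis libraries in 1 fit and Benjamini-Hochberg adjustment over 184 annotated miRNAs for miR-26a and over 731 predicted hairpins for 6_4267002. The test over the 4 stages gave an adjusted p = 0.00069 for miR-26a (edgeR, 47.8% of annotated miRNAs called) and 6.95e-05 for the hairpin (edgeR, 93.3% of hairpins called). From Infant to Adult 91.8% of hairpins rose, the direction opposite to that of 6_4267002.

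The comparison of Pre-puber with Infant asks what changes before puberty. On the scale of the 13 testis libraries, miR-26a stood at 438507, 234882 and 108991 CPM in Infant 31a, 31b and 30 and at 91973, 102537 and 104809 in Pre-puber 3a, 3b and 14. The Infant libraries spread widely, and on this scale Infant 30 lay just above the Pre-puber range. As a share of annotated counts, Infant 30 (9.04%) lay below all Pre-puber libraries (9.11% to 10.4%). The log2 fold change was -1.39 ± 0.41 (SE), with an adjusted p = 0.0242 by edgeR. This call rested on the choice of libraries and on the scaling. Without Infant 31a the log2 fold change was -0.77 (adjusted p = 0.164 by edgeR), and with libraries of a shared title number summed -1.03 (adjusted p = 0.159). Without Pre-puber 3a, 3b or 14 the adjusted p was 0.0765, 0.0627 and 0.0520. Without scaling beyond the library total the log2 fold change was -0.81 (adjusted p = 0.0506 by edgeR).

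The hairpin stood at 37010, 27033 and 13701 CPM in Infant 31a, 31b and 30 and at 7823, 9380 and 8839 in Pre-puber 3a, 3b and 14. The order of the Infant libraries was that of miR-26a. The log2 fold change was -1.58 ± 0.40 (SE, adjusted p = 0.00598 by edgeR), a 2.99-fold lower level in Pre-puber. It kept its call without each library in turn (log2 fold change from -1.90 to -1.22, adjusted p up to 0.0349) and with the paired titles summed (-1.33). Among all features tested, 23.9% of annotated miRNAs and 71% of hairpins were called, and 15 of 184 annotated miRNAs (8.15%) and 11 of 731 hairpins (1.5%) fell, while 15.8% and 69.5% rose. Without scaling beyond the library total, 5 of 41 called annotated miRNAs fell. Groups did not overlap for either member, as for 35.9% of annotated miRNAs and 41.3% of hairpins.

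The comparison of Puber with Pre-puber asks what changes at puberty. Puber 10, 11 and 19 held 80937, 63209 and 45428 CPM of miR-26a and 7755, 5216 and 2954 CPM of the hairpin. The lowest Pre-puber values, 91973 and 7823 CPM, lay above all of these, by a small margin for the hairpin. The log2 differences were -0.66 ± 0.40 (SE, adjusted p = 0.416 by edgeR) for miR-26a and -0.71 ± 0.40 (adjusted p = 0.116) for the hairpin. Neither was called, in a comparison with 1.09% of annotated miRNAs and 55.1% of hairpins called, where 55% of hairpins rose and 0.137% fell. Groups did not overlap for 26.6% and 77.7% of them.

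Between Adult and Puber the values overlapped. Adult 13, 20, 33 and 4 held 41607, 64731, 45747 and 43815 CPM of miR-26a and 2645, 4844, 4892 and 3233 CPM of the hairpin. Adult 20 stood highest for miR-26a, and Adult 20 and 33 for the hairpin. The log2 differences were -0.37 ± 0.37 (SE, adjusted p = 0.591 by edgeR) and -0.44 ± 0.37 (adjusted p = 0.963), in a comparison with 0% of either class called by edgeR. At an unadjusted p under 0.05 edgeR listed 34 of 184 annotated miRNAs and 17 of 731 hairpins. At an adjusted p under 0.05 DESeq2 called 10 annotated miRNAs and limma-voom 0. The groups did not overlap for 23.9% of annotated miRNAs and 14.4% of hairpins.

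Over the whole span from Infant to Adult both members fell. miR-26a went from 260793 ± 166279 CPM (SD, n = 3) to 48975 ± 10639 (n = 4), a log2 fold change of -2.41 ± 0.38 (SE, adjusted p = 0.000208 by edgeR) and a 5.33-fold lower level. The hairpin went from 25915 ± 11695 to 3904 ± 1140 CPM, a log2 fold change of -2.73 ± 0.38 (adjusted p = 2.62e-05 by edgeR) and a 6.64-fold lower level. All Adult libraries lay below all Infant libraries for both members, as for 50% of annotated miRNAs and 91.9% of hairpins in either direction. In all, 51.6% of annotated miRNAs and 93.8% of hairpins were called. Falls were called for 47 of 184 annotated miRNAs (25.5%) and 15 of 731 hairpins (2.05%), rises for 26.1% and 91.8%. With upper quartile scaling 65 of 105 called annotated miRNAs fell, and without scaling 21 of 105. Without Infant 31a the fall of miR-26a was smaller, at -1.80 (adjusted p = 0.000988 by edgeR). Scaling also set its size: without scaling beyond the library total it was -1.41 for miR-26a and -1.73 for the hairpin, with both calls kept, and with all entries in 1 fit -4.11 and -4.46. Set against the median log2 change of annotated miRNAs under the same setting, the log2 change was -2.42 to -2.04 for miR-26a and -2.74 to -2.44 for the hairpin over 11 settings. A scaling moves all miRNAs by nearly the same amount and so mostly cancels against the median, and the narrow ranges do not check the scaling. The fit of all entries and the fits without 1 library were left out, so these ranges do not cover the choice of libraries.

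**Figure D2:**
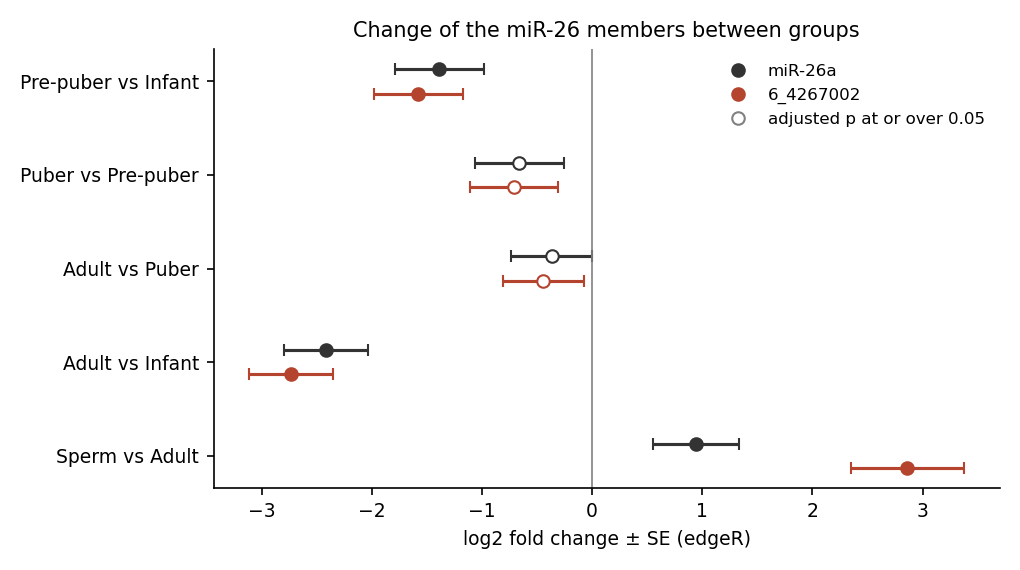
Log2 fold change ± SE (edgeR) of miR-26a and of the hairpin 6_4267002 in 5 comparisons; filled points have an adjusted p under 0.05. Both members lie below 0 by similar amounts in the testis comparisons, and in Sperm against Adult the hairpin (2.86) lies far above miR-26a (0.94).

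Sperm was compared with Adult testis, the tissue that produces it, in a fit of these 8 libraries. The hairpin was higher in Sperm, with 14454, 38051, 17192 and 13324 CPM in Sperm 1, 2, 3 and 4 against 2042, 3264, 3320 and 2790 in Adult 13, 20, 33 and 4. On the scale of this fit every sperm library stood above every Adult library, and Sperm 2 stood apart from the rest. As a share of annotated counts the groups overlapped, with 0.645% in Sperm 4 and 0.765% in Adult 33. The rise was 7.27-fold (log2 fold change 2.86 ± 0.51 SE, adjusted p = 1.97e-06 by edgeR), and without Sperm 2 the log2 fold change was 2.36. It passed the test under all 18 alternatives, with log2 fold changes from 1.25 to 3.06. Of 620 hairpins tested 65.8% were called, 272 rose (43.9%) and 21.9% fell, and groups did not overlap for 52.3%. Sperm RNA was treated for a shorter time with DNase and purified by phenol and chloroform, per the labels, so extraction and cell type cannot be told apart.

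The direction of miR-26a in Sperm changed with the scaling. On the scale of the same fit it stood at 46173, 95977, 75513 and 60287 CPM in Sperm 1, 2, 3 and 4 and at 32119, 43620, 31042 and 37813 in Adult 13, 20, 33 and 4. The groups did not overlap on this scale, as for 74.7% of annotated miRNAs, and the log2 fold change was 0.94 ± 0.39 (SE, adjusted p = 0.0222 by edgeR), in a comparison where 81.5% of 162 annotated miRNAs were called, 42% higher and 39.5% lower. Without scaling 86 of 122 called annotated miRNAs were lower. Without Adult 13, 20 or 4 the adjusted p by edgeR was 0.0785, 0.144 and 0.0594. As a share of annotated counts it had a lower mean in Sperm, 4.00% ± 1.55 (SD, n = 4) against 6.35% ± 0.55 (n = 4). Without scaling beyond the library total the log2 difference was -0.67 (adjusted p = 0.0611 by edgeR) and with all entries in 1 fit -0.034. With RLE size factors it was 0.30, and with all 17 libraries in 1 fit 0.26, neither called. The median annotated miRNA moved with the scaling as well, from 0.06 as reported to -0.61 with RLE and -1.61 without scaling. Set against that median, miR-26a lay higher by 0.85 to 1.09 and the hairpin by 2.73 to 3.01 over 10 settings. Here too the scaling mostly cancels against the median, so these narrow ranges do not settle the direction of miR-26a. The fit of all entries and the fits without 1 library were again left out, so these ranges do not cover the choice of libraries.

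**Figure D3:**
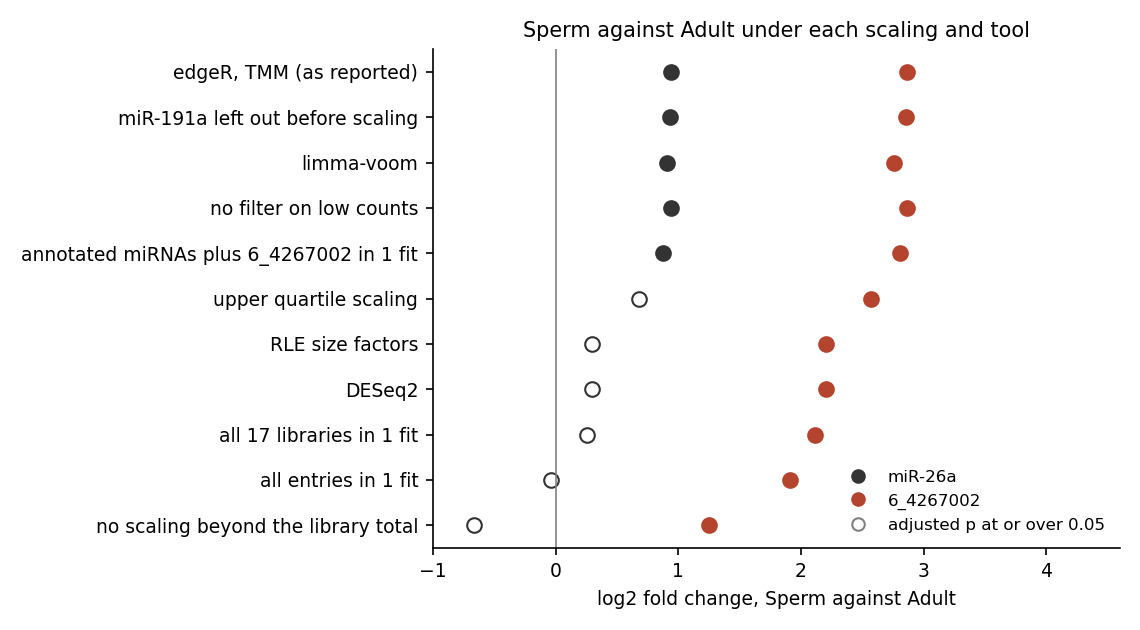
Log2 fold change of Sperm against Adult (n = 4 each; 17 libraries in 1 setting) for miR-26a and the hairpin 6_4267002 under the reported fit and 10 other scalings, filters and tools; filled points have an adjusted p under 0.05. The hairpin is called in every row shown (1.25 to 2.86), whereas miR-26a runs from -0.67 to 0.94 and is called in 5 of 11 rows.

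The ratio of the members within a library does not depend on scaling. Per 100 counts of miR-26a, the hairpin had 8.44, 11.5 and 12.6 counts in Infant 31a, 31b and 30, 8.51, 9.15 and 8.43 in Pre-puber 3a, 3b and 14, and 9.58, 8.25 and 6.50 in Puber 10, 11 and 19. It had 6.36, 7.48, 10.7 and 7.38 in Adult 13, 20, 33 and 4, and 31.3, 39.6, 22.8 and 22.1 in Sperm 1, 2, 3 and 4. The 13 testis libraries lay between 6.36 and 12.6, and the lowest sperm library stood well above them. Counting error was at most 0.5 counts per 100 to each side (95% interval).

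The mean log2 ratio of miR-26a to the hairpin was 3.68 ± 0.32 in Adult (SD, n = 4) and 1.83 ± 0.40 in Sperm (n = 4), a difference of -1.84 and a 3.59-fold fall of the ratio. The two-sided exact permutation p was 0.0286, which no arrangement of 4 and 4 libraries can go below. Adjusted over the 5 comparisons of the ratio it was 0.143 and did not pass 0.05. With its p already the smallest possible, it could pass only if other comparisons had p-values as small. The adjusted value therefore cannot decide on this difference. Without each library in turn the difference was -1.99 to -1.68. In the testis the mean log2 ratio was 3.23 ± 0.30 in Infant, 3.52 ± 0.06 in Pre-puber and 3.64 ± 0.28 in Puber (n = 3 each). None of the testis differences (0.30, 0.12 and 0.03 between neighbouring stages and 0.45 from Infant to Adult) passed the exact permutation test, with p = 0.30, 0.70, 0.886 and 0.143, where 3 against 3 libraries cannot go below 0.10.

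miR-26a and miR-26b differ at few bases, and the sources used here do not say how a read that matches both was counted. The ratio is one of read counts and not of molecules. It sets a mature miRNA against a whole predicted hairpin, whose counts are not split by arm.

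**Figure D4:**
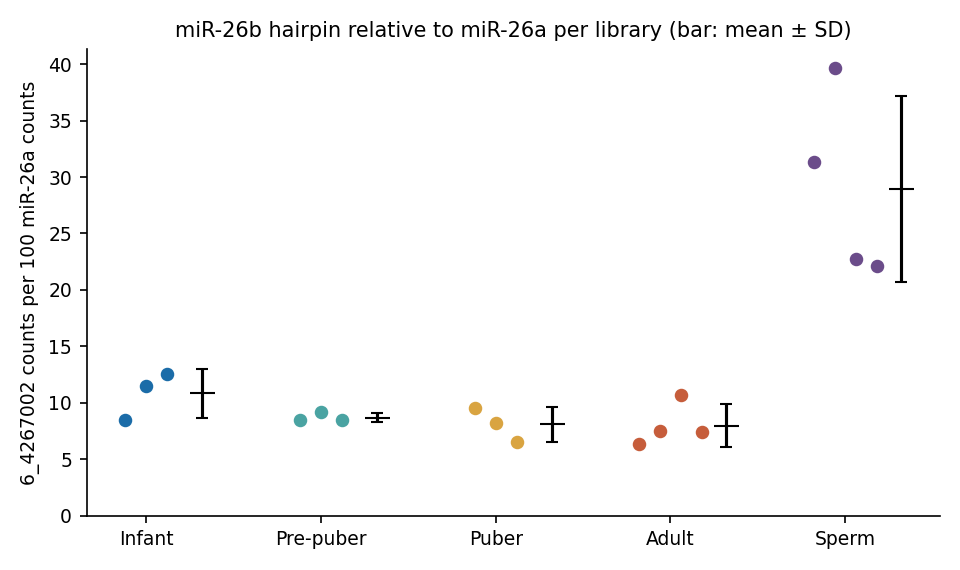
Counts of the hairpin 6_4267002 per 100 counts of miR-26a in each of the 17 libraries, with the mean ± SD of each group as a bar (n = 3 or 4). The testis libraries lie between 6.36 and 12.6 and the sperm libraries between 22.1 and 39.6.

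Other abundant miRNAs of Infant testis were read beside the members. In the same edgeR fits, the 9 annotated miRNAs that accompany miR-26a at the top of Infant libraries, a list taken from earlier results of these data, had 1 call lower (miR-99a) and 0 higher in Pre-puber against Infant (median log2 change -0.02, against 0.16 for all tested), where 8.15% of annotated miRNAs fell and 15.8% rose. In Adult against Infant 3 of 9 fell, miR-99a (-2.80 ± 0.34 SE), miR-125b-5p (-1.41 ± 0.31) and let-7f (-1.02), with a median of -0.65 against -0.14 for all tested, of which 25.5% fell. The share of falls is near the general one, and 0 of 9 rose, where 26.1% of annotated miRNAs rose. The list was chosen for high levels in Infant, which favours falls from Infant, so these counts are a description. In Sperm against Adult 2 of 9 fell, let-7c (-2.86 ± 0.42) and miR-100 (-4.69 ± 0.46), with a median of -0.51 against 0.06 for all tested, of which 39.5% fell. There 0 of 9 rose, where 42% of annotated miRNAs rose. miR-99a had a log2 difference of 0.49 ± 0.40 in Sperm and was not called.

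Of 4 miRNAs known, like miR-26a, to repress EZH2, 3 were matched by name: miR-101, miR-138 and miR-124. miR-101 was the abundant one, at 24613 ± 13566 CPM (17 libraries scaled together) in Infant (SD, n = 3) and 7682 ± 2246 in Adult (n = 4). It fell from Infant to Adult (log2 fold change -1.71 ± 0.39 SE) and again in Sperm (-3.15 ± 0.45), where it stood at 513 ± 155 CPM (n = 4). miR-138 rose from Infant to Adult (4.83 ± 0.78), but only from 0.672 ± 0.77 to 18.9 ± 5.79 CPM, and fell in Sperm. miR-124, a neural miRNA, was higher in Sperm, at 61.5 ± 27.3 against 0.72 ± 0.76 CPM in Adult. The list therefore held 1 rise and 1 fall in Adult against Infant (2 tested), where 26.1% of annotated miRNAs rose and 25.5% fell. It held 1 rise and 2 falls in Sperm against Adult (3 tested), where 42% rose and 39.5% fell.

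The lists of other cell types moved as follows in the same comparisons. From Infant to Adult, 4 of 4 germ cell markers rose (median log2 change 10.28), 2 of 3 stromal markers and 1 of 4 blood markers fell, and miR-126-5p of endothelium was not called, where 26.1% of annotated miRNAs rose and 25.5% fell. From Adult to Sperm, 4 of 4 germ cell markers rose (median 2.90), 3 of 3 stromal markers and miR-126-5p fell, and 1 of 4 blood markers rose, where 42% of annotated miRNAs rose and 39.5% fell. The blood marker that rose was miR-451 of red cells, at 1150 ± 401 CPM in Sperm and 308 ± 443 in Adult (SD, n = 4 each, 17 libraries scaled together). Its highest Adult library, at 973 CPM, overlapped with Sperm, which began at 562. Of the same list, miR-486-5p was not called, at 1078 ± 719 CPM in Sperm and 1257 ± 1179 in Adult. Summed blood markers ranged from 1005 to 3518 CPM in Sperm, from 891 to 4548 in Adult and from 920 to 6099 in Infant. None of the listed markers of striated muscle (4), epithelium (5) or gonadal soma (1) was matched by name. The part of these cell types in the rise of the hairpin in Sperm was not tested.

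To show which miRNAs had the most similar course, log2(CPM + 1) values of the 17 jointly scaled libraries were correlated. The points share their stages, so the values describe the course over groups. The 5 annotated miRNAs nearest to miR-26a, of 118 with a mean of at least 50 CPM, were miR-181a (Spearman's rho 0.88, Pearson's r 0.85), miR-99a (0.82 and 0.83), miR-181b (0.82 and 0.74), miR-199a-5p (0.79 and 0.43) and miR-211 (0.78 and 0.73), where the median rho was 0.15. miR-181a ranged from 4257 to 5880 CPM in Infant, from 970 to 1925 in Adult and from 1581 to 2295 in Sperm. miR-199a-5p, a stromal miRNA, ended at 44.3 ± 25.0 CPM in Sperm, far below its 8735 ± 2144 in Adult.

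Over the 17 libraries the hairpin had other neighbours. Of 119 annotated miRNAs, the nearest were miR-335 (rho 0.93, r 0.94), miR-135a (0.91 and 0.91), miR-186 (0.78 and 0.56), miR-155 (0.73 and 0.73) and miR-190b (0.70 and 0.53), with a median rho of 0.03. miR-335, from an intron of the imprinted gene MEST, stood at 388 ± 139 CPM in Infant, 70.6 ± 28.2 in Adult and 345 ± 126 in Sperm. miR-135a stood at 812 ± 314, 43.7 ± 17.7 and 840 ± 288 CPM in the same groups. Both, like the hairpin, were low in Adult testis between higher levels in Infant and in Sperm. These neighbours were chosen by values that include the Adult and Sperm libraries, so their levels there are a description of the choice.

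Between the members themselves, rho was 0.95 and r 0.97 over the 13 testis libraries, but 0.64 and 0.71 over all 17. Within testis, miR-26a was the nearest annotated miRNA to the hairpin, and both members shared near neighbours. There miR-98 had a rho of 0.95 with miR-26a and 0.91 with the hairpin, and miR-299 had 0.91 with each. With sperm included, miR-26a was in position 11 for the hairpin, and miR-98 and miR-299 were in positions 34 and 32.

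**Figure D5:**
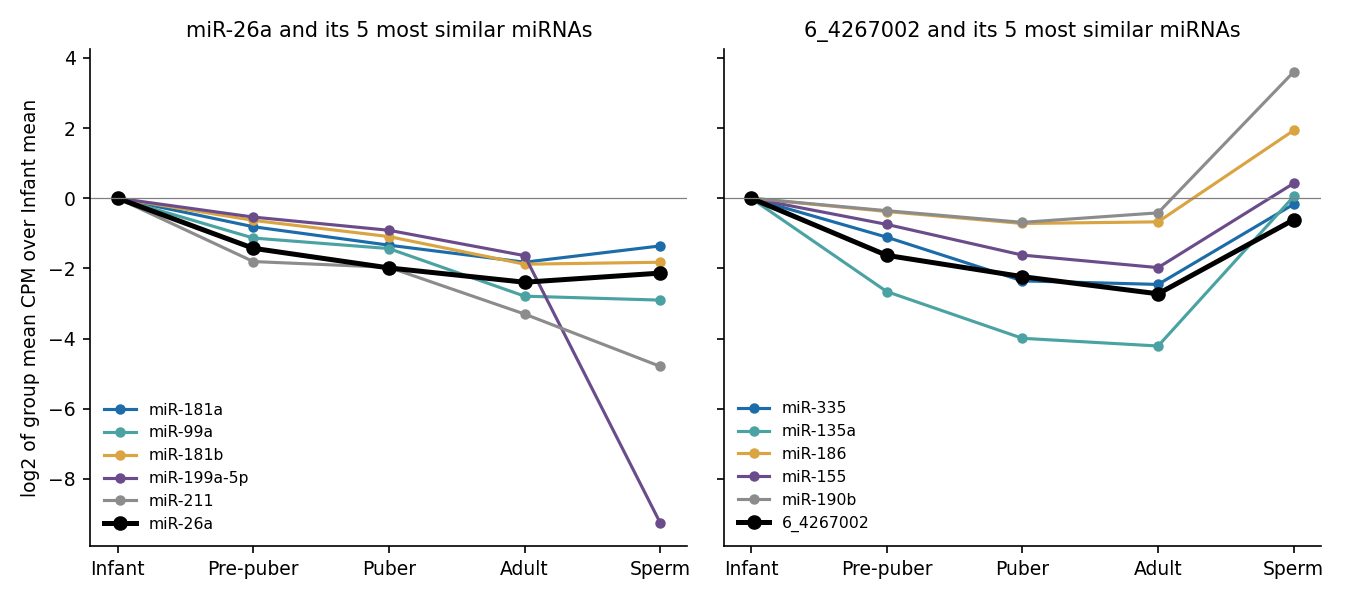
Log2 of each group's mean CPM over the Infant mean, for miR-26a (left, thick line) and the hairpin 6_4267002 (right, thick line) with the 5 annotated miRNAs most similar to each over 17 libraries scaled together (n = 3, 3, 3, 4 and 4 libraries, from Infant to Sperm; no error is drawn). Every line lies below 0 in Adult, and from Adult to Sperm all lines on the right go up, while miR-99a (slightly), miR-199a-5p and miR-211 on the left go down. Slopes from Adult to Sperm depend on the scaling: in the fit of Adult and Sperm alone miR-99a had a log2 difference of 0.49 (not called).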

How the data were processed

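Small RNA was sequenced in 13 testis and 4 sperm libraries. Reads were trimmed with Trimmomatic, per the submitters' processing notes, which name the build EquCab3.0. Which aligner, counter and miRNA annotation made the table is not given in the sources used here. In the deposited table, the count columns hold whole read counts, as the values show, and its RPM columns equal count shares within 0.005 RPM. Columns were matched to titles by their numbers. Adult 4 and Sperm 4 were told apart by the column prefix se, taken as sperm. Coordinates were shifted to 1-based starts, since end minus start equals the length of every hairpin.

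For each name the entry with the highest counts was kept. edgeR 4.0.16 (R 4.3.3) was run with filterByExpr, TMM factors of annotated miRNAs and a threshold of adjusted p under 0.05. Annotated miRNAs and hairpins were tested separately with the same factors. Standard errors derive from the F statistic and are approximate. The test was run on simulated counts in which a minority of miRNAs changed, with as many rises as falls. Such counts cannot check the scaling in Sperm against Adult, where most miRNAs were called. Ratios were compared by exact two-sided permutation, and hairpins folded with RNAfold 2.7.2. Replicates of a group differed beyond sampling noise (chi-square per degree of freedom at least 351). Named miRNAs are the members, the 5 annotated miRNAs with the highest rho to each, and the most abundant 1 to 3 of each list. Other named list members were chosen after their values were seen. Members and lists were chosen with earlier results of these data known. DESeq2 1.42.0 and limma 3.58.1 were alternatives.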

Additional observations from a re-analysis of the deposited data

Results flagged for a closer look

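In 1 of 10 sets of 4 libraries examined, which reuse the same Adult and Sperm libraries, a library lay far from the others. The miR-26b hairpin stood at 38051 CPM in Sperm 2, scaled with the 8 Adult and Sperm libraries, and the next highest sperm library held 17192 CPM. The gap was 0.844 of the whole range of the group. Chance alone flags about 1 set in 20. With all 17 libraries scaled together, Sperm 2 held 24511 CPM and the other sperm libraries 16270, 10844 and 9905, so the distance depends on the scaling. Sperm 2 also had the highest hairpin count per 100 counts of miR-26a, 39.6.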

How the results depend on the processing

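Of 219 values recomputed under other settings, 195 kept their direction and their side of the threshold. This total includes results that had not been called, among them all ratio differences, whose permutation test could hardly pass. It therefore does not measure how firm the calls are. miR-26a kept its call in 8 of 17 alternatives in Pre-puber against Infant and in 9 of 18 in Sperm against Adult. The falls of both members from Infant to Adult and the rise of the hairpin in Sperm kept their call under all 18 alternatives each. The fall of miR-26a from Infant to Pre-puber was no longer called (all edgeR unless named) without scaling (-0.81), by limma-voom (-1.17), with all entries in 1 fit (-0.90), with only the 2 groups (-1.45) or with shared title numbers summed (-1.03). Leaving out 1 library gave -1.77 to -0.77 and ended 4 of 6 calls. The hairpin lost this call with all entries in 1 fit (-1.16). In Puber against Pre-puber that setting gave calls for miR-26a (-2.51) and the hairpin (-2.54). In Sperm against Adult, miR-26a was not called with RLE (0.30), upper quartiles (0.68), DESeq2 (0.30) or all 17 libraries (0.26), and it took the other sign without scaling (-0.67) and with all entries in 1 fit (-0.034). Leaving out 1 library gave 0.59 to 1.12 and ended 3 of 8 calls, those without Adult 13, 20 or 4. Where no test had passed, the log2 ratio difference took the other sign on leaving out 1 library in Puber against Pre-puber (-0.033 to 0.25) and in Adult against Puber (-0.10 to 0.18). Counts of called miRNAs (hairpins included where all entries were fitted) went from 44 to 26 (only 2 groups) and 603 (all entries) in Pre-puber against Infant. They went from 2 to 0 and 194 in Puber against Pre-puber and from 0 to 19 (only 2 groups) in Adult against Puber. In Adult against Infant they went from 95 to 75 (without Adult 13) and 830 (all entries). In Sperm against Adult they went from 132 to 122 (without scaling) and 508 (all entries). The cause was not tested. In Puber against Pre-puber the count was 30 without Pre-puber 14, 1 without Puber 10 and 0 without Pre-puber 3a or 3b or Puber 11 or 19, 16 by DESeq2 and 19 by limma-voom. In Adult against Puber it was 7 without Puber 19 or Adult 20. No paired analysis was possible because the groups share at most 1 title number. Depth did not limit either member.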
